A study of Homo sapiens with 12 samples.

Results

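The genes that copy DNA were followed in Molt-4 and Jurkat cells, 2 human lines from T-lineage acute lymphoblastic leukaemia (T-ALL), grown with or without chidamide. The set held 43 genes out of the 25146 in the deposited table, chosen with earlier results of these data known. They were picked by symbol for a place in origin licensing, the replicative helicase, the polymerases or the fork, together with E2F1 and E2F2. All 43 were found, and all 43 passed the expression filter, set at 1 FPKM (fragments per kilobase of transcript, scaled to the mapped fragments of a library) in 3 or more libraries. The 4 groups of 3 libraries were compared: chidamide-treated Molt-4, untreated Molt-4, chidamide-treated Jurkat and untreated Jurkat. Chidamide (tucidinostat) is a benzamide inhibitor of class I histone deacetylases and HDAC10, and was given at 2 µM. The protocol states 48 h, whereas the labels of treated replicates 1, 2 and 3 read 48, 49 and 50 h, so time and replicate number cannot be told apart. The untreated cells are described only as receiving no chidamide, and no vehicle is named. Both lines are established leukaemia cultures, and whether replicate libraries derive from separate cultures is not stated, so p-values measure the spread between these libraries alone, which may be technical.

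In every cell cycle the origin recognition complex (ORC) marks replication origins, and CDC6 and CDT1 help it to load the ring-shaped MCM2-7 helicase there before S phase. CDC7 and the cyclin-dependent kinases then switch the helicase on by joining it to CDC45 and the GINS complex. Polymerase alpha-primase starts each new strand, polymerases epsilon and delta extend it on the sliding clamp PCNA, replication factor C (RFC) loads that clamp, replication protein A (RPA) coats bare single strands, and FEN1 and LIG1 process and join Okazaki fragments. Many of these genes are transcribed around the G1/S transition by E2F factors, which the retinoblastoma protein holds back when cyclin-dependent kinases are inhibited, for example by p21, the product of CDKN1A. T-ALL cultures divide quickly, so the whole set is normally active in them.

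Libraries are titled J or M, taken here as Jurkat or Molt-4 because the growth protocol names these lines and no others, and the identity of the cells was not checked by genotype. All 8 T-lineage markers examined reached at least 1 FPKM in all 12 libraries. They summed to 689 to 725 FPKM in treated and 831 to 912 FPKM in untreated Molt-4, and to 1186 to 1247 FPKM in treated and 2023 to 2064 FPKM in untreated Jurkat, with 4 of 8 lower and 3 higher in Molt-4 and 6 lower and 1 higher in Jurkat. The libraries titled M and read as Molt-4 also held high erythroid transcripts. The 6 erythroid markers summed to 20504.5 to 20996 FPKM in treated and 9351 to 10056 FPKM in untreated M libraries. In Jurkat they summed to 6.99 to 79.8 FPKM in treated and 0.35 to 1.93 FPKM in untreated libraries. These erythroid values put the reading of M as Molt-4 in question, which was not tested. HBG2, a fetal globin, averaged 14075 ± 221 FPKM in treated and 6000.1 ± 289.8 FPKM in untreated Molt-4 (SD, n = 3 each), and it was listed at 0 in all 3 untreated Jurkat libraries. Of the erythroid markers, 4 of 6 rose in treated Molt-4 and 4 of 6 in treated Jurkat. The 6 monocyte markers summed to 93.4 to 98.4 FPKM in treated and 6.71 to 7.31 FPKM in untreated Molt-4, and the 6 B-lineage markers to 18.9 to 23.8 FPKM in treated and 3.86 to 6.02 FPKM in untreated Molt-4. In Jurkat the monocyte markers summed to 3.66 to 6.4 FPKM in treated and 1.08 to 2.19 FPKM in untreated libraries, and the B-lineage markers to 16.2 to 19.1 FPKM in treated and 35.4 to 43.9 FPKM in untreated libraries. Marker levels thus moved with chidamide in both lines, as did those of many other genes. Of all genes tested, 35.4% were called higher and 24.6% lower in Molt-4, and 30.9% and 25.4% in Jurkat. The part of the markers in the results was not tested. Untreated Jurkat replicate 3 lay farther from its group than any other library (the log2 ratios to its 2 partners had a mean SD of 0.334, against 0.239 to 0.286 elsewhere), and untreated Molt-4 replicate 3 carried 10.1% of its FPKM in 2 genes of 7SL RNA, against 2.25% to 5.35% in the other libraries. Library totals were 698435 to 869059 FPKM, read counts were not recovered, and the depth behind each value is unknown.

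RefSeq promoters on GRCh38.p14 were found for 37 of the 43 genes, and the 250 bases before the start were searched on both strands. An E2F site, written as TTTCCCGC, TTTCGCGC, TTTGCCGC or TTTGGCGC, was present in 14 of 37 (37.8%), against 2.79% of 27305 promoters of the same length. The CCAAT box (letters CCAAT) was present in 21 of 37 (56.8%), against 33% of all promoters. The E-box CACGTG was present in 4 (10.8%, in MCM2, MCM7, RPA1 and FEN1), against 6.49%, and the CHR letters TTTGAA in 0, against 13.6%. Within the nearest 100 bases 11 genes (29.7%) held an E2F site, against 1.16% of promoters. The promoters of MCM4, MCM5, GINS4, POLD3, RPA2 and RPA3 were not examined. Shown here are 6 of the 11 windows, chosen to include different responses. PCNA, MCM6, MCM7 and POLE fell in both lines, E2F1 fell in Jurkat, and CDT1 was called in neither. The windows of ORC3 and E2F2, called lower in Molt-4 alone, are not shown. Each window shown runs 5′ to 3′ along the gene from 100 bases before its start. The capitals mark the E2F site on either strand, with overlapping sites in MCM6.
PCNA: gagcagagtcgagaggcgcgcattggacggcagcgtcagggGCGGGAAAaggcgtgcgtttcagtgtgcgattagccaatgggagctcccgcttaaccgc
MCM6: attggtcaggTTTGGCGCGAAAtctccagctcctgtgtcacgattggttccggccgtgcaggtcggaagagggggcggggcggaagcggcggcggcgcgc
MCM7: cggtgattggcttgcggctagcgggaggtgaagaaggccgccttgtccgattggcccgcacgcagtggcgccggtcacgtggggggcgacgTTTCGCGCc
POLE: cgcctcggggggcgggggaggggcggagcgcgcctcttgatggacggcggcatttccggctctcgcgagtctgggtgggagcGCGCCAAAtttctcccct
E2F1: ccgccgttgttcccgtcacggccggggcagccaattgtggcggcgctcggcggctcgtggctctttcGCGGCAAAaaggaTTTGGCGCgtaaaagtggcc
CDT1: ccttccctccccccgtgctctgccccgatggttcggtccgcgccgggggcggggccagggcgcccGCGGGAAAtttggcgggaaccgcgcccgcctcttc
These windows are chr20:5126623-5126722 on the minus strand for PCNA, chr2:135876444-135876543 on the minus strand for MCM6 and chr7:100101398-100101497 on the minus strand for MCM7. The POLE window is chr12:132687343-132687442 on the minus strand, that of E2F1 is chr20:33686386-33686485 on the minus strand and that of CDT1 is chr16:88803689-88803788 on the plus strand. A match of letters is a description and not evidence of binding. The median log2 change of the 14 genes with an E2F site in 250 bases was -0.37 in Molt-4 and -0.27 in Jurkat, and that of the 23 without was -0.39 and -0.41. In Molt-4 the order of these medians turned with the 100-base window (-0.40 with a site and -0.35 without), and in Jurkat it did not (-0.28 and -0.35).

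Most genes of the replication set had lower FPKM in the chidamide-treated libraries of both lines. In Molt-4, 28 of 43 genes fell, 2 rose and 13 were not called, and in Jurkat 34 fell, 0 rose and 9 were not called. A gene was called when its adjusted p was under 0.05 over all 13840 genes tested (limma on log2(FPKM + 1), Benjamini-Hochberg adjustment). Over all genes tested, 24.6% fell and 35.4% rose in Molt-4, and 25.4% fell and 30.9% rose in Jurkat. Those genes include many below the level of the set. With a minimum of 5 FPKM, 3253 of 11067 genes fell and 3545 rose in Molt-4. In Jurkat 3353 of them fell and 3191 rose. For the count of 0 in Jurkat, the number higher at an unadjusted p under 0.05 was also 0, and 35 were lower at that level. The changes were modest: the ratio of group means had a median of 0.769 in Molt-4 (range 0.608 to 1.23) and 0.797 in Jurkat (0.556 to 1.06), and no gene reached a log2 fall of 1 in either line. The median log2 change of the set was -0.36 in Molt-4, where that of all genes was 0.08, and -0.32 in Jurkat, where that of all genes was 0.04. With the minimum of 5 FPKM the medians of all genes were 0.005 in Molt-4 and -0.004 in Jurkat. In RNA from whole cultures, fewer cells that express a gene and less of its RNA per cell cannot be told apart. FPKM is also scaled within each library, so the absolute amount of RNA was not measured.

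The same 25 genes fell in both lines, a count given without a background, since the share over all genes was not computed. They were ORC1, ORC2, ORC6, CDC6, MCM4, MCM5, MCM6, MCM7, MCM10, CDC45, GINS1, GINS3, POLA2, POLD1, POLD2, POLD3, POLE, POLE2, PCNA, RFC1, RFC2, RFC3, RFC5, RPA2 and LIG1. ORC3, FEN1 and E2F2 were called lower in Molt-4 alone, and ORC5, MCM2, CDC7, GINS2, POLA1, RFC4, RPA3 and E2F1 were called lower in Jurkat alone. MCM3 was called in opposite directions, ORC4 was called higher in Molt-4 and not called in Jurkat, and CDT1, GINS4, PRIM1, PRIM2 and RPA1 were called in neither line. All 3 treated values lay below all 3 untreated values for 29 genes in Molt-4 and 36 in Jurkat, where 28.3% and 27.4% of all genes did so. They lay above for 2 genes in Molt-4 (MCM3 and CDC7) and 0 in Jurkat, against 39% and 33.3% of all genes.

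**Figure D1:**
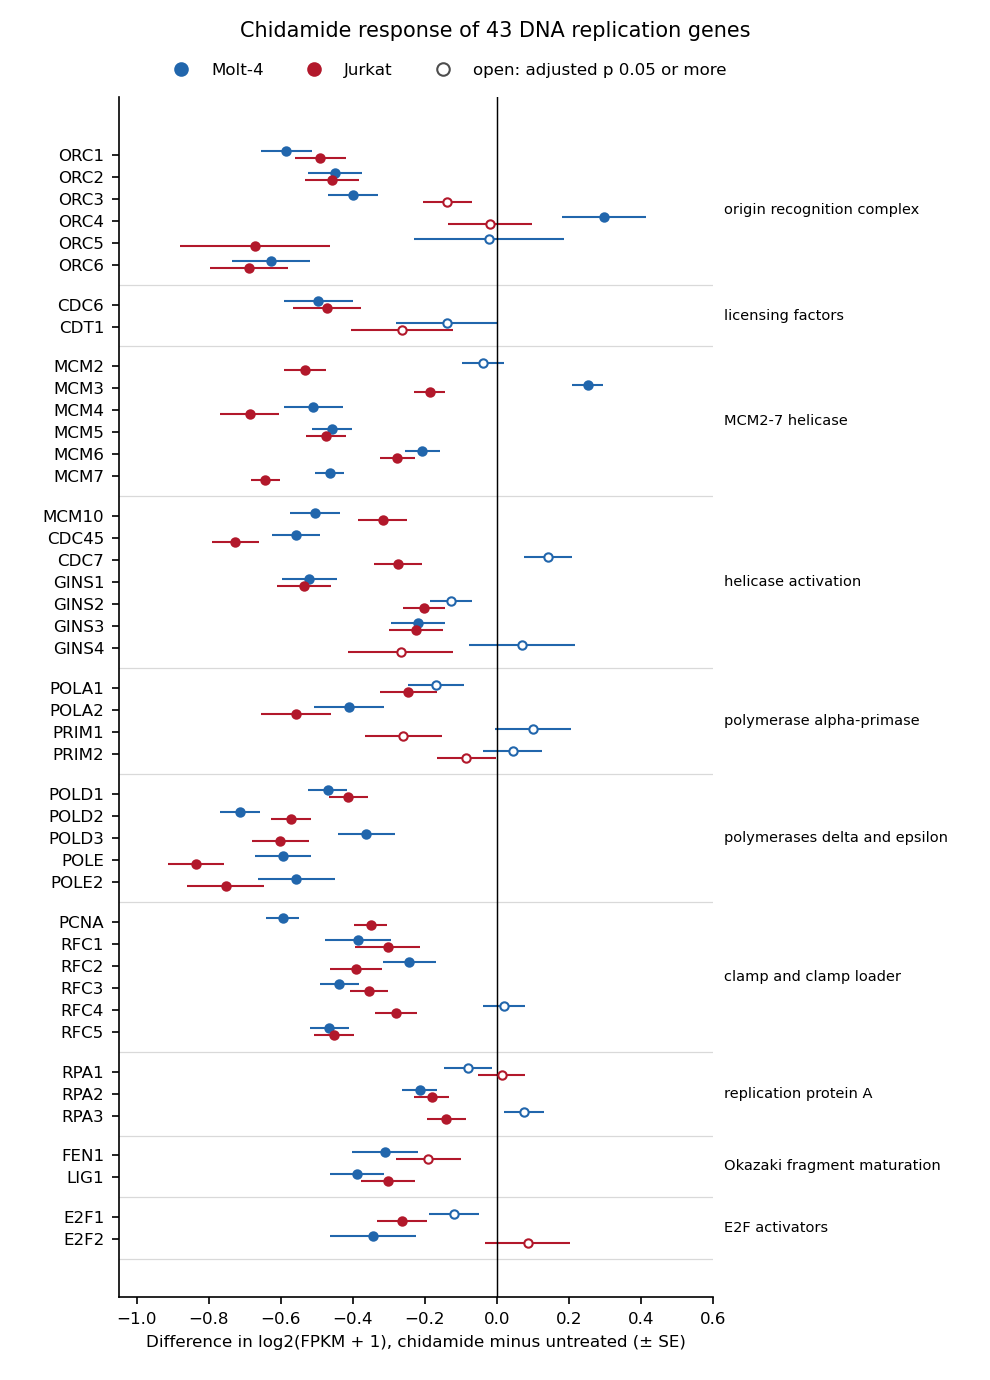
Change of each of the 43 replication genes with chidamide, as the difference in log2(FPKM + 1) between treated and untreated libraries (horizontal axis), with its standard error, in Molt-4 (blue) and Jurkat (red). Filled points passed an adjusted p of 0.05, and most lie left of 0 in both lines, between 0 and -0.84.

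The summed FPKM of the 43 genes followed the same course. It was 2898, 2873 and 2901 FPKM in treated Molt-4, against 3677, 3630 and 3701 FPKM in untreated Molt-4, and 2499, 2502 and 2542 FPKM in treated Jurkat, against 3376, 3457 and 3335 FPKM in untreated Jurkat. The treated and untreated libraries did not overlap in either line. As a share of all FPKM without the 7SL genes, the set held 0.382% to 0.388% in treated and 0.474% to 0.504% in untreated Molt-4, and 0.370% to 0.371% in treated and 0.471% to 0.474% in untreated Jurkat. The least abundant mean was 11.0 FPKM, for ORC1 in treated Jurkat, and the most abundant 401 FPKM, for PCNA in untreated Molt-4, so no gene of the set was near the detection limit of the filter.

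Among the origin recognition subunits, ORC1, the ATPase subunit that joins the complex as cells enter G1, had 17.8, 16.8 and 15.6 FPKM in treated Molt-4, against 26.7, 25.8 and 24.2 FPKM in untreated Molt-4. In Jurkat it had 10.9, 11.5 and 10.6 FPKM with chidamide, against 16.4, 15.3 and 15.9 FPKM without. Every treated library lay below every untreated library of its line. ORC1 fell by 34.6% in Molt-4 (log2 change -0.58, SE 0.0709, adjusted p 1.9e-05) and by 30.6% in Jurkat (-0.49, SE 0.0709, adjusted p 9.18e-05). ORC6, the smallest subunit, had 38.4, 43.3 and 38.1 FPKM in treated and 56.2, 62.3 and 68.4 FPKM in untreated Molt-4. In Jurkat its values were 37.1, 36.3 and 44.4 FPKM with chidamide and 59.1, 74.2 and 58.8 FPKM without. Its groups were also separate, with log2 changes of -0.63 in Molt-4 (SE 0.109, adjusted p 0.000344) and -0.69 in Jurkat (SE 0.109, adjusted p 0.000187). ORC2 fell in both lines, with means of 11.9 ± 0.786 FPKM in treated and 16.7 ± 1.41 FPKM in untreated Molt-4, and 11.9 ± 0.166 FPKM in treated and 16.7 ± 0.434 FPKM in untreated Jurkat (SD, n = 3).

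The remaining ORC subunits behaved less uniformly. ORC4 had 38.2, 45.5 and 37.7 FPKM in treated Molt-4, against 29.6, 30.8 and 38.1 FPKM in untreated Molt-4, so the groups overlapped through untreated replicate 3. It was called higher there (log2 change 0.30, SE 0.117, adjusted p 0.0445), a call that was lost without any one of treated Molt-4 replicates 1 and 2, untreated Molt-4 replicates 1 and 2, treated Jurkat replicate 2 and untreated Jurkat replicates 1 and 2, with adjusted p of 0.0525 to 0.176. In Jurkat ORC4 averaged 29.99 ± 4.26 FPKM with chidamide and 30.2 ± 1.76 FPKM without (SD, n = 3). ORC5 had the largest spread of the set, with 13.6, 9.85 and 9.93 FPKM in treated and 15.0, 24.1 and 16.4 FPKM in untreated Jurkat. Its fall in Jurkat (-0.67, SE 0.207, adjusted p 0.0153) was lost without treated replicate 2 (adjusted p 0.0553), treated replicate 3 (0.0542) or untreated replicate 2 (0.0695). In Molt-4 ORC5 had 35.3, 26.5 and 24.9 FPKM with chidamide and 34.1, 32.5 and 22.0 FPKM without, which overlap. ORC3 averaged 13.5 ± 0.197 FPKM in treated and 18.1 ± 0.694 FPKM in untreated Molt-4, where it was called, and 19.1 ± 0.571 FPKM in treated and 21.1 ± 1.64 FPKM in untreated Jurkat, where it was not.

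Of the licensing factors that bring the helicase to ORC, CDC6 fell in both lines and CDT1 passed the test in neither. CDC6 had 27.8, 27.5 and 31.4 FPKM in treated and 44.9, 39.1 and 39.5 FPKM in untreated Molt-4, and 23.5, 22.4 and 24.4 FPKM in treated and 38.3, 30.3 and 30.4 FPKM in untreated Jurkat. The groups were separate in each line. CDT1 had 50.4, 52.0 and 60.3 FPKM in treated Molt-4, against 65.0, 60.4 and 53.9 FPKM in untreated Molt-4, and 40.9, 42.9 and 53.4 FPKM in treated Jurkat, against 47.4, 50.0 and 69.3 FPKM in untreated Jurkat. These ranges overlapped, and the 95% intervals of the log2 change ran from -0.45 to 0.17 in Molt-4 and from -0.57 to 0.05 in Jurkat.

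The MCM2-7 helicase genes were among the most abundant transcripts of the set. Its 6 subunits summed to 1084, 1038 and 1074 FPKM in treated and 1301, 1289 and 1316 FPKM in untreated Molt-4, and to 811, 795 and 804 FPKM in treated and 1162, 1195 and 1106 FPKM in untreated Jurkat. All 6 fell in Jurkat, with a median log2 change of -0.50. In Molt-4, 4 fell, MCM3 rose and MCM2 was not called, with a median of -0.33. Although the protein complex holds its subunits in equal number, their RNA levels per length differed: MCM7 was highest and MCM6 lowest in Molt-4, with a ratio of 4.12 in treated and 4.91 in untreated cells, and MCM4 was highest and MCM6 lowest in Jurkat, with a ratio of 2.50 in treated and 3.33 in untreated cells.

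MCM4 and MCM7, which with MCM6 form the catalytic core of the ring, fell in both lines. MCM4 had 286, 256 and 257 FPKM in treated Molt-4, against 357, 393 and 388 FPKM in untreated Molt-4, and 199, 194 and 192 FPKM in treated Jurkat, against 321, 353 and 274 FPKM in untreated Jurkat. Its groups were separate in each line, with log2 changes of -0.51 in Molt-4 (SE 0.0811, adjusted p 0.000174) and -0.69 in Jurkat (SE 0.0811, adjusted p 1.75e-05). MCM7 had 286, 276 and 289 FPKM in treated and 398, 383 and 393 FPKM in untreated Molt-4. In Jurkat it had 189.7, 185 and 192 FPKM with chidamide and 288, 304 and 296 FPKM without. MCM7 had the smallest standard error of the set, with changes of -0.46 in Molt-4 (SE 0.04, adjusted p 1e-06) and -0.64 in Jurkat (SE 0.04, adjusted p 8.17e-08). Of its annotated exon bases, 7.58% overlap AP4M1 on the opposite strand, and the library kit does not keep strand.

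MCM2, MCM3 and MCM6 changed less or differently. MCM2, a target of the CDC7 kinase, had 134, 132 and 141 FPKM in treated and 140.3, 134 and 144 FPKM in untreated Molt-4, which overlap, and 109, 108 and 112 FPKM in treated and 170.2, 163 and 146 FPKM in untreated Jurkat, which do not. An unstranded library cannot separate MCM2 from an antisense transcript annotated over 30.7% of its exon bases. MCM3 had 217, 212 and 219 FPKM in treated Molt-4, above the 186, 175 and 183 FPKM of untreated Molt-4, and 136, 132 and 137 FPKM in treated Jurkat, below the 156, 148 and 158 FPKM of untreated Jurkat. It rose in Molt-4 (log2 change 0.25, SE 0.0433, adjusted p 0.000315) and fell in Jurkat (-0.19, SE 0.0433, adjusted p 0.00288). The fall in Jurkat was lost with quantile normalization (adjusted p 0.258) and with equal totals after leaving out 7SL RNA (0.0851). MCM5 averaged 94.97 ± 4.26 FPKM in treated and 131 ± 9.3 FPKM in untreated Molt-4, and 96.1 ± 1.07 FPKM in treated and 134 ± 3.23 FPKM in untreated Jurkat (SD, n = 3), and MCM6 fell in both lines by smaller amounts, 13.5% in Molt-4 and 17.7% in Jurkat.

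**Figure D2:**
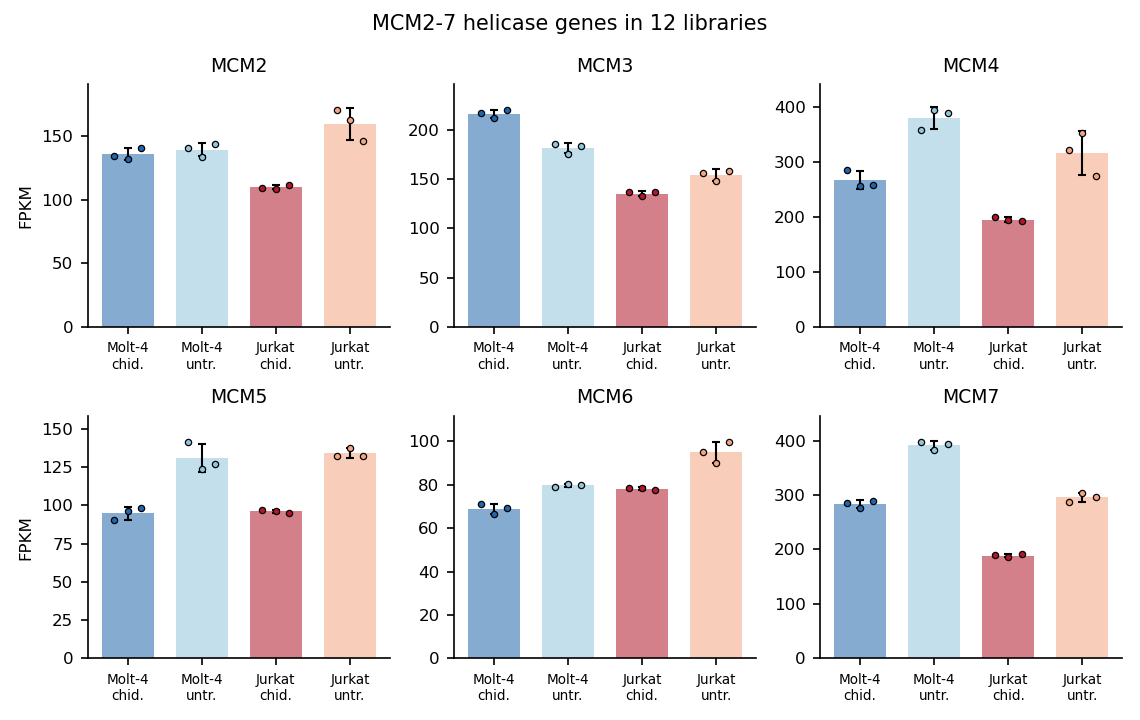
FPKM (vertical axes, from 0) of the 6 MCM2-7 genes in treated and untreated Molt-4 and Jurkat libraries; bars are means, error bars the SD and points the 3 libraries. MCM4, MCM5, MCM6 and MCM7 are lower with chidamide in both lines, MCM2 is lower in Jurkat, and MCM3 is higher in treated Molt-4, at 212 to 219 FPKM against 175 to 186 FPKM in untreated Molt-4.

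Of the 7 genes that turn the loaded helicase on, 4 fell in Molt-4 (median log2 change -0.22) and 6 in Jurkat (-0.27). CDC45, which joins the MCM ring and GINS in the active helicase, had 80.04, 79.7 and 83.0 FPKM in treated and 122, 114 and 122 FPKM in untreated Molt-4. In Jurkat it had 47.6, 53.1 and 54.0 FPKM with chidamide and 81.6, 82.5 and 93.9 FPKM without. Both pairs of groups were far apart, at -0.56 in Molt-4 (SE 0.0661, adjusted p 1.54e-05) and -0.73 in Jurkat (SE 0.0661, adjusted p 1.95e-06). GINS1, a subunit of the GINS ring, averaged 26.7 ± 1.02 FPKM in treated and 38.7 ± 1.57 FPKM in untreated Molt-4 (log2 change -0.52, SE 0.0755, adjusted p 8.37e-05), and also fell in Jurkat, by 32.3%. MCM10, which acts when the loaded helicase starts to unwind, averaged 23.8 ± 0.925 FPKM in treated and 34.3 ± 2.19 FPKM in untreated Molt-4 (-0.51, SE 0.0686, adjusted p 4.79e-05), and fell in Jurkat by 20.3%. Of the 4 GINS genes, whose products form 1 complex, GINS1 and GINS3 fell in both lines and GINS2 passed the test in Jurkat, at -0.20, and not in Molt-4, at -0.13. GINS4 averaged 51.3 ± 1.67 FPKM in treated and 49.3 ± 8.41 FPKM in untreated Molt-4, and 45.3 ± 7.88 FPKM in treated and 54.7 ± 9.26 FPKM in untreated Jurkat, without a call. An annotated gene on the opposite strand overlaps 21.2% of the exon bases of GINS4, and another 16.5% of those of GINS3. The GINS2 call in Jurkat was lost without treated replicate 2 (adjusted p 0.0524), and that of GINS3 in Jurkat without treated replicate 1 (0.0811), treated replicate 3 (0.0683) or untreated replicate 1 (0.0998). In Molt-4 the GINS3 call was lost without treated replicates 1 (0.0679) or 3 (0.0804) or untreated replicates 1 (0.0646) or 2 (0.0549).

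CDC7, the catalytic subunit of the kinase that phosphorylates the MCM ring, had 17.1, 16.1 and 17.4 FPKM in treated Molt-4, against 14.7, 15.5 and 15.3 FPKM in untreated Molt-4. Those groups do not overlap, yet the change missed the threshold (log2 change 0.14, SE 0.0663, adjusted p 0.0846) and passed it only when untreated Jurkat replicate 3 was left out of the shared fit (0.0486). In Jurkat CDC7 had 22.9, 23.3 and 21.7 FPKM with chidamide, below the 27.5, 25.8 and 29.5 FPKM without (-0.27, SE 0.0663, adjusted p 0.00368).

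Polymerase alpha-primase, which makes the RNA-DNA primer, moved least among the enzymes of synthesis. POLA2, its regulatory subunit, fell in both lines, with 25.7, 22.5 and 26.5 FPKM in treated and 36.4, 29.4 and 34.6 FPKM in untreated Molt-4, and 34.6, 33.2 and 30.8 FPKM in treated and 46.0, 54.4 and 46.4 FPKM in untreated Jurkat. Its log2 change was -0.56 in Jurkat (SE 0.0963, adjusted p 0.000359), and 53.7% of its exon bases are shared with another annotated gene on the same strand, and which of these genes the reads there came from was not tested. The catalytic subunit POLA1 averaged 17.0 ± 1.13 FPKM in treated and 19.2 ± 1.52 FPKM in untreated Molt-4, without a call, and 12.4 ± 0.795 FPKM in treated and 14.9 ± 0.129 FPKM in untreated Jurkat, where it fell; without treated Jurkat replicate 1 (adjusted p 0.0697) or 2 (0.0535) the Jurkat call was lost, and without untreated Molt-4 replicate 1 a Molt-4 call appeared (0.039). The primase genes passed in neither line. PRIM1 averaged 44.1 ± 1.39 FPKM in treated and 41.1 ± 3.01 FPKM in untreated Molt-4, and 39.6 ± 1.81 FPKM in treated and 48.1 ± 9.14 FPKM in untreated Jurkat. Of PRIM1 exon bases, 26.0% are shared with another annotated gene on the same strand. For PRIM2 the means were 23.1 ± 2.22 and 22.4 ± 1.77 FPKM in treated and untreated Molt-4, and 22.1 ± 0.514 and 23.6 ± 1.28 FPKM in treated and untreated Jurkat (SD, n = 3).

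Of the polymerases that extend the strands, all 5 subunits in the set fell in both lines. Their median log2 change was -0.56 in Molt-4 and -0.60 in Jurkat. POLE, the catalytic subunit of leading-strand polymerase epsilon, had 76.9, 83.0 and 84.7 FPKM in treated Molt-4, against 123, 116 and 132 FPKM in untreated Molt-4. In Jurkat it had 62.3, 65.3 and 55.9 FPKM with chidamide and 101, 109 and 119.8 FPKM without. It fell by 34% in Molt-4 (log2 change -0.59, SE 0.0771, adjusted p 3.37e-05) and by 44.4% in Jurkat (-0.84, SE 0.0771, adjusted p 2.19e-06), the largest fall of the 43 genes in Jurkat. POLE2, its second subunit, had 20.6, 18.8 and 16.7 FPKM in treated and 26.3, 25.4 and 32.3 FPKM in untreated Molt-4, and 15.8, 14.4 and 16.7 FPKM in treated and 28.5, 28.0 and 24.5 FPKM in untreated Jurkat. Its groups were separate, at -0.56 in Molt-4 (SE 0.106, adjusted p 0.000695) and -0.75 in Jurkat (SE 0.106, adjusted p 7.47e-05).

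POLD2, an accessory subunit of lagging-strand polymerase delta, showed the largest fall of the set in Molt-4. It had 152, 148 and 150.1 FPKM in treated and 254, 243 and 242 FPKM in untreated Molt-4, and 189.9, 187 and 204 FPKM in treated and 291, 307 and 268 FPKM in untreated Jurkat. The log2 change was -0.71 in Molt-4 (SE 0.0547, adjusted p 3.63e-07) and -0.57 in Jurkat (SE 0.0547, adjusted p 2.95e-06). The catalytic subunit POLD1 averaged 92.3 ± 3.84 FPKM in treated and 128 ± 2.4 FPKM in untreated Molt-4, and 89.7 ± 1.36 FPKM in treated and 119.9 ± 8.07 FPKM in untreated Jurkat. Another annotated gene on the same strand shares 12.1% of POLD1 exon bases. POLD3, which also serves in break-induced replication, averaged 16.8 ± 1.21 FPKM in treated and 21.8 ± 0.583 FPKM in untreated Molt-4, and 12.7 ± 0.413 FPKM in treated and 19.8 ± 1.84 FPKM in untreated Jurkat (log2 change in Jurkat -0.60, SE 0.0794, adjusted p 4.42e-05). Further small subunits of these enzymes, POLD4, POLE3 and POLE4, lie outside the 43 genes and did not all move in this direction. POLE3 was called lower in both lines, POLE4 was called lower in Molt-4 alone, and POLD4 rose in both.

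PCNA, the clamp that keeps both polymerases on DNA, had 267, 264 and 265 FPKM in treated Molt-4, against 396, 403 and 405 FPKM in untreated Molt-4. In Jurkat it had 178, 178 and 179 FPKM with chidamide, against 240.2, 231 and 212 FPKM without. The treated libraries of each line were nearly level with each other and lay below every untreated one. PCNA fell by 33.9% in Molt-4 (log2 change -0.59, SE 0.046, adjusted p 3.85e-07) and by 21.8% in Jurkat (-0.35, SE 0.046, adjusted p 4.13e-05). Of the 5 clamp loader genes, all 5 fell in Jurkat and 4 in Molt-4. RFC4 was the exception, with 116, 130.5 and 127 FPKM in treated and 128, 122 and 118 FPKM in untreated Molt-4, and 94.0, 96.2 and 96.6 FPKM in treated and 112, 112 and 124 FPKM in untreated Jurkat. RFC1, the large subunit, averaged 31.5 ± 1.59 FPKM in treated and 41.5 ± 2.21 FPKM in untreated Molt-4, and 34.6 ± 1.5 FPKM in treated and 43.3 ± 6.41 FPKM in untreated Jurkat; the Jurkat call was lost without treated replicate 1 (adjusted p 0.0503). RFC2, RFC3 and RFC5 fell by 15.8%, 26.8% and 28.2% in Molt-4 and by 24.4%, 22.3% and 27.3% in Jurkat. The RFC2 call in Molt-4 was lost without treated replicate 3 (adjusted p 0.0617) or untreated replicate 1 (0.0512).

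Replication protein A changed little. RPA1, the large DNA-binding subunit, had 39.8, 43.2 and 38.1 FPKM in treated Molt-4, against 45.8, 42.6 and 39.9 FPKM in untreated Molt-4, and 68.8, 64.0 and 68.5 FPKM in treated Jurkat, against 66.8, 68.8 and 63.8 FPKM in untreated Jurkat. The groups overlapped in both lines, and the 95% intervals of the log2 change were -0.22 to 0.06 in Molt-4 and -0.13 to 0.16 in Jurkat, neither of which reaches the PCNA change of the same line. RPA2 fell by 14% in Molt-4 and 12% in Jurkat, the Jurkat call being lost with quantile normalization (adjusted p 0.267) and equal totals without 7SL RNA (0.141). RPA3 averaged 56.3 ± 2.49 FPKM in treated and 53.4 ± 2.4 FPKM in untreated Molt-4, and 86.1 ± 3.7 FPKM in treated and 94.9 ± 2.49 FPKM in untreated Jurkat, where it fell with an adjusted p of 0.0464. That call was lost without any one of treated Jurkat replicates 2 and 3, untreated Jurkat replicates 1 and 3, treated Molt-4 replicates 1 and 3 and untreated Molt-4 replicates 2 and 3, with adjusted p of 0.0505 to 0.142. For Okazaki fragments, the flap nuclease FEN1 had 77.3, 79.2 and 82.1 FPKM in treated and 98.7, 97.9 and 100.01 FPKM in untreated Molt-4, which are separate, and 73.5, 76.5 and 72.1 FPKM in treated and 91.98, 94.0 and 69.9 FPKM in untreated Jurkat, where untreated replicate 3 alone did not lie above the treated range. Without that library FEN1 was called lower in Jurkat too (adjusted p 6.36e-05, against 0.0931 with it). The ligase LIG1 fell in both lines, by 24.2% in Molt-4 and 19.1% in Jurkat.

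**Figure D3:**
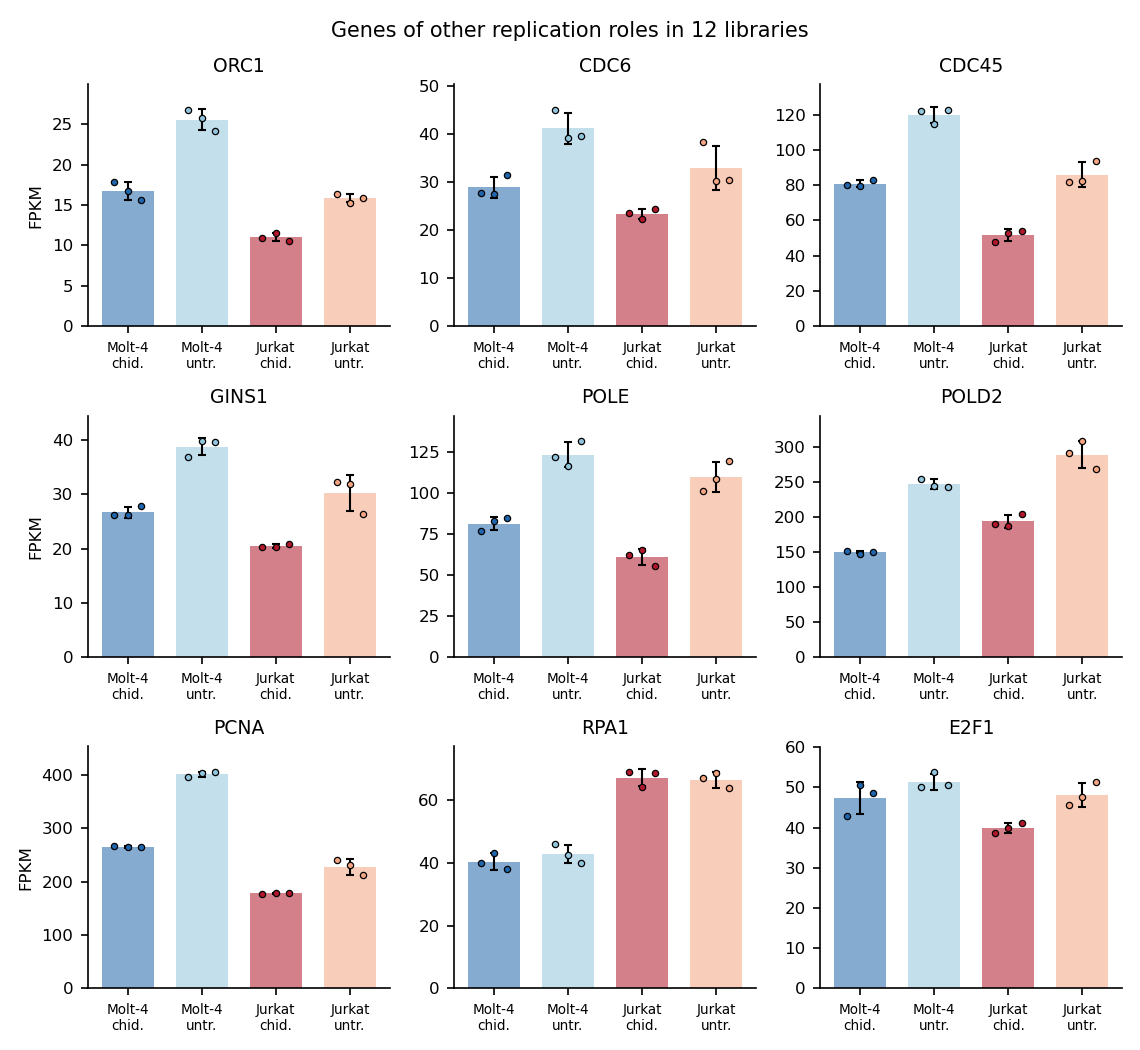
FPKM (vertical axes, from 0) of 9 replication genes of different roles in treated and untreated Molt-4 and Jurkat libraries; bars are means, error bars the SD and points the 3 libraries. RPA1 overlaps the untreated libraries in each line and was called in neither. E2F1 was called lower in Jurkat, and in Molt-4 it overlapped and was not called (42.9 to 50.5 FPKM against 50.0 to 53.7 FPKM). The other genes were called lower with chidamide in both lines.

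E2F1 and E2F2, activators that drive many of these genes, were low to moderate in level and changed in different lines. E2F1 had 42.9, 50.5 and 48.7 FPKM in treated and 50.0, 53.7 and 50.5 FPKM in untreated Molt-4 (log2 change -0.12, SE 0.0695, adjusted p 0.165), and 38.7, 39.9 and 41.2 FPKM in treated and 45.5, 47.5 and 51.4 FPKM in untreated Jurkat (-0.26, SE 0.0695, adjusted p 0.00641). The groups overlapped in Molt-4 and were separate in Jurkat. E2F2 had 17.4, 17.2 and 14.9 FPKM in treated and 22.2, 20.6 and 20.7 FPKM in untreated Molt-4 (-0.34, SE 0.118, adjusted p 0.0247), and 16.5, 19.4 and 16.0 FPKM in treated and 13.9, 15.3 and 19.8 FPKM in untreated Jurkat (0.09, SE 0.118, adjusted p 0.57). The groups were separate in Molt-4 and overlapped in Jurkat. E2F1 passed in Molt-4 with median-of-ratios scaling (adjusted p 0.0457) and missed in Jurkat with quantile normalization (0.0616). The E2F2 call in Molt-4 was lost without treated replicate 3 (adjusted p 0.0983) or untreated replicate 1 (0.0743). Neither gene passed the test of the difference between lines (adjusted p 0.294 for E2F1 and 0.071 for E2F2). The E2F2 difference did pass without untreated Jurkat replicate 3 (log2 difference -0.57, adjusted p 0.00561), with median-of-ratios scaling (0.0497), with quantile normalization (0.0336) and with equalized totals that leave out 7SL RNA (0.0472).

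Genes around the set were read from 2 lists, which were chosen with earlier results of these data known. Their shares are therefore a description and not independent support. Of 32 other replication genes, such as accessory polymerase subunits, checkpoint mediators and chromatin assembly factors, 23 fell and 1 rose in Molt-4 (median log2 change -0.37), and 22 fell and 1 rose in Jurkat (-0.33). The share that fell was 71.9% in Molt-4 and 68.8% in Jurkat, against 24.6% and 25.4% of all genes tested. The gene that rose was POLD4, the smallest subunit of polymerase delta. It had 61.5, 72.3 and 71.3 FPKM in treated and 17.8, 22.9 and 20.5 FPKM in untreated Molt-4, and 42.4, 41.9 and 44.4 FPKM in treated and 22.2, 23.9 and 28.8 FPKM in untreated Jurkat. It thus moved against its partners POLD1, POLD2 and POLD3, at 1.70 in Molt-4 (SE 0.106, adjusted p 5.89e-08) and 0.76 in Jurkat (SE 0.106, adjusted p 6.64e-05). CDC25A, the phosphatase that activates cyclin-dependent kinases at G1/S, fell by 41.9% in Molt-4 and 48.9% in Jurkat. UHRF1, which guides maintenance DNA methylation at the fork, fell in both lines, with 134 ± 3.81 FPKM in treated and 249.7 ± 2.68 FPKM in untreated Molt-4, and 109 ± 2.92 FPKM in treated and 143 ± 10.8 FPKM in untreated Jurkat. POLE4, a small polymerase epsilon subunit, fell in Molt-4, with 29.96 ± 3.09 FPKM in treated and 56.6 ± 6.85 FPKM in untreated cells, and averaged 24.3 ± 1.57 FPKM in treated and 27.5 ± 4.17 FPKM in untreated Jurkat, without a call. The chromatin assembly subunit CHAF1B and the nuclease DNA2 fell in both lines, by 33.6% and 36.2% in Molt-4 and by 47.1% and 44.9% in Jurkat (SD, n = 3 throughout).

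Of 23 genes of the E2F, DP and RB families and the G1/S cyclins and their regulators, 13 fell and 3 rose in Molt-4 (median log2 change -0.29), and 11 fell and 7 rose in Jurkat (-0.24). The share that fell was 56.5% in Molt-4 and 47.8% in Jurkat, against 24.6% and 25.4% of all genes tested. The share that rose was 13.0% and 30.4%, against 35.4% and 30.9%, so in Jurkat it was near that of all genes. CDKN1A, which encodes the kinase inhibitor p21, had 17.4, 21.0 and 21.3 FPKM in treated and 0.59, 0.63 and 0.69 FPKM in untreated Molt-4 (log2 change 3.67, SE 0.11, adjusted p 1.56e-10), and 52.0, 50.1 and 50.2 FPKM in treated and 1.67, 1.08 and 1.13 FPKM in untreated Jurkat (4.51, SE 0.11, adjusted p 4.07e-11). RB1, the retinoblastoma gene, rose in both lines, with 89.6 ± 3.93 FPKM in treated and 49.97 ± 0.788 FPKM in untreated Molt-4 (0.83, SE 0.0554, adjusted p 1.08e-07). It averaged 138 ± 4.35 FPKM in treated and 51.6 ± 3.11 FPKM in untreated Jurkat (1.41, SE 0.0554, adjusted p 1.99e-09). The cyclin gene CCND2 rose in both lines, with 6.28 ± 0.344 FPKM in treated and 0.61 ± 0.0173 FPKM in untreated Molt-4, and 6.36 ± 0.622 FPKM in treated and 3.62 ± 0.335 FPKM in untreated Jurkat. CCND1 rose in Jurkat, with 2.86 ± 0.954 FPKM in treated and 0.02 ± 0.0173 FPKM in untreated cells, and averaged 21.6 ± 3.49 FPKM in treated and 24.4 ± 2.4 FPKM in untreated Molt-4, without a call. E2F5, a repressive E2F, fell in both lines, with 4.07 ± 0.65 FPKM in treated and 9.49 ± 1.26 FPKM in untreated Molt-4, and 8.56 ± 0.837 FPKM in treated and 20.04 ± 2.11 FPKM in untreated Jurkat. TFDP2, a DP partner of E2F proteins, also fell in both lines, with 72.9 ± 8.37 FPKM in treated and 143 ± 20.2 FPKM in untreated Molt-4, and 88.5 ± 13.7 FPKM in treated and 178 ± 15.7 FPKM in untreated Jurkat (SD, n = 3).

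**Figure D4:**
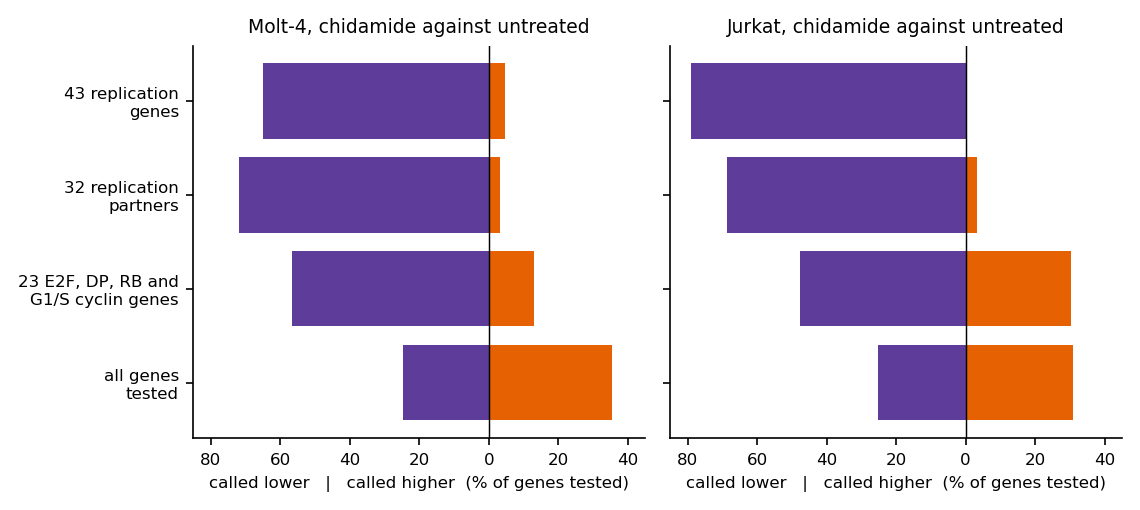
Share of genes called lower (left of 0) or higher (right of 0) with chidamide, in % of the genes tested, in Molt-4 and Jurkat, for the 43 replication genes, 32 further replication genes, 23 cell cycle regulators and all genes tested. Among the 43 genes 28 in Molt-4 and 34 in Jurkat were lower, where 24.6% and 25.4% of all genes were.

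Across the 43 genes, the log2 changes of the 2 lines had a Pearson correlation of 0.606. This describes genes measured in the same libraries and is not a test, since genes are not independent replicates. The correlation over all genes was not computed. The response itself differed between lines for 6 of the 43 genes. In 5 the change was more positive in Molt-4 (19.8% of all genes were called in that direction) and in 1 more negative (12.1% of all genes). MCM2 differed most, with a log2 difference of responses of 0.49 (Molt-4 minus Jurkat, SE 0.0819, adjusted p 0.000694), from changes of -0.04 in Molt-4 and -0.53 in Jurkat. MCM3 followed at 0.44 (SE 0.0613, adjusted p 0.000202) and CDC7 at 0.42 (SE 0.0938, adjusted p 0.00514). RFC4 differed by 0.30 (SE 0.0823, adjusted p 0.0154), from 0.02 in Molt-4 and -0.28 in Jurkat, and MCM7 by 0.18 (SE 0.0566, adjusted p 0.0298), from -0.46 in Molt-4 and -0.64 in Jurkat. The RFC4 difference was not called after quantile normalization (0.127) or after equalizing totals without 7SL RNA (0.0984), and that of MCM7 with median-of-ratios scaling (0.0546) and without 7SL RNA (0.216). PCNA was the only gene called with a more negative response in Molt-4, at -0.24 (SE 0.065, adjusted p 0.0132). The split of 5 and 1 depended on the scaling: it was 4 and 4 with quantile normalization, 4 and 3 with median-of-ratios scaling and 3 and 4 with equal totals without 7SL RNA. Without untreated Jurkat replicate 1 or 3, 2 genes rather than 1 were called more negative in Molt-4. The MCM7 difference lost its call in 6 of the 12 fits without 1 library, with adjusted p of 0.0588 to 0.0784: those without treated Jurkat replicates 1 or 2, untreated Jurkat replicate 2, treated Molt-4 replicates 1 or 3, or untreated Molt-4 replicate 2.

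A call in 1 line alone did not amount to a difference between lines for most genes. Of the 8 genes called lower in Jurkat alone, the difference passed for MCM2, CDC7 and RFC4, and not for ORC5 (adjusted p 0.115), GINS2 (0.534), POLA1 (0.644), RPA3 (0.053) or E2F1 (0.294). For the 3 called lower in Molt-4 alone it did not pass (ORC3 0.0578, FEN1 0.517, E2F2 0.071), and ORC4 missed it at 0.174. The ORC3 difference rested on the setting: it passed with no filter (0.0476), median-of-ratios scaling (0.0445), quantile normalization (0.0139), equalized totals that leave out 7SL RNA (0.0256) and without untreated Jurkat replicate 1 (0.0322). That of RPA3 passed with no filter (0.0465) and without treated Jurkat replicate 1 (0.0433) or treated Molt-4 replicate 2 (0.0411).

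**Figure D5:**
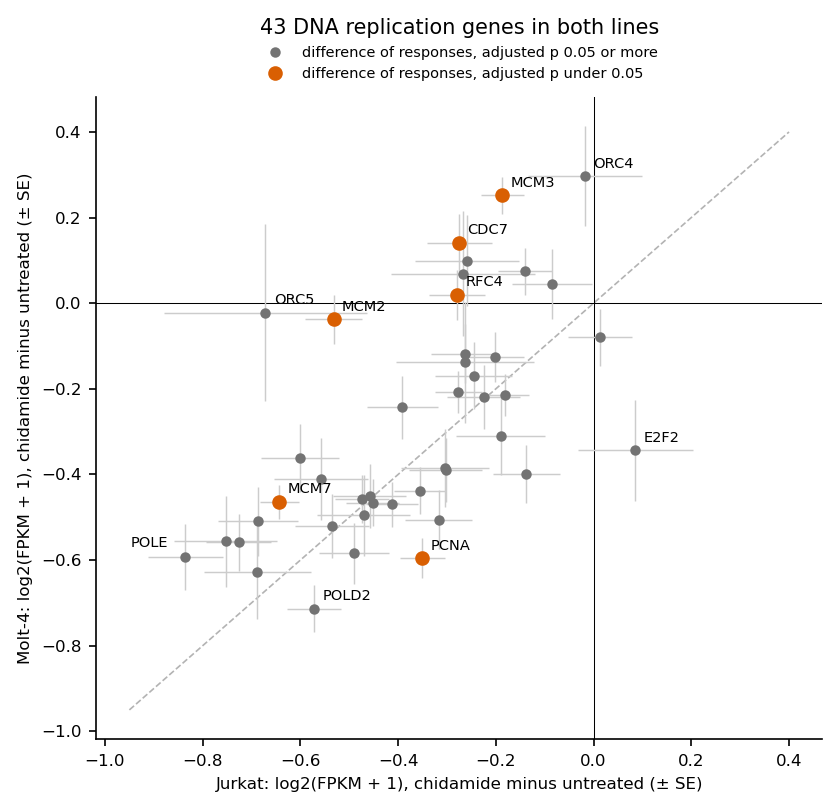
Log2 change with chidamide of the 43 replication genes in Molt-4 (vertical axis) against Jurkat (horizontal axis), each with its standard error; the dashed line marks equal change. Orange points differed between lines: MCM2, MCM3, CDC7, RFC4 and MCM7 lie above the line and PCNA below it.

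The untreated lines themselves differed in 22 of the 43 genes, with 12 higher (27.9%) and 10 lower (23.3%) in Molt-4 than in Jurkat. Of all genes tested, 27.9% were higher and 37.5% lower. The share higher was thus near that of all genes, and the share lower was below it. The median log2 difference of the set was 0.02, and that of all genes -0.07. These values share the untreated libraries with the treatment comparisons and are given for level alone. PCNA was the gene most in excess in untreated Molt-4, at 401 ± 4.76 FPKM against 228 ± 14.3 FPKM in untreated Jurkat (log2 difference 0.82, SE 0.046, adjusted p 1.15e-08). ORC1 averaged 25.6 ± 1.28 FPKM in untreated Molt-4 and 15.9 ± 0.547 FPKM in untreated Jurkat (0.66, SE 0.0709, adjusted p 5.03e-06), and CDC45 119.6 ± 4.55 and 86.0 ± 6.85 FPKM (0.47, SE 0.0661, adjusted p 4.6e-05). ORC5 was also higher in untreated Molt-4 (0.65, SE 0.207, adjusted p 0.0154), a call lost without untreated Jurkat replicate 1 (0.064) or untreated Molt-4 replicates 1 (0.0643) or 2 (0.0564).

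CDC7 and RPA3 were lower in untreated Molt-4 by similar amounts. CDC7 averaged 15.2 ± 0.387 FPKM in untreated Molt-4 and 27.6 ± 1.85 FPKM in untreated Jurkat (log2 difference -0.82, SE 0.0663, adjusted p 3.49e-07), and RPA3 53.4 ± 2.4 and 94.9 ± 2.49 FPKM (-0.82, SE 0.0548, adjusted p 6.08e-08). RPA1 was lower too, at 42.8 ± 2.99 FPKM in untreated Molt-4 and 66.5 ± 2.5 FPKM in untreated Jurkat (-0.63, SE 0.0661, adjusted p 3.99e-06). RPA2, the third subunit of the same complex, averaged 67.9 ± 1.86 FPKM in untreated Molt-4 and 62.7 ± 2.26 FPKM in untreated Jurkat and was not called (SD, n = 3). POLA2 averaged 33.5 ± 3.64 FPKM in untreated Molt-4 and 48.9 ± 4.77 FPKM in untreated Jurkat (-0.54, SE 0.0963, adjusted p 0.000366), whereas the catalytic subunit POLA1 was among the 12 genes higher in Molt-4, at 19.2 ± 1.52 FPKM against 14.9 ± 0.129 FPKM in Jurkat. The 3 untreated values of a line lay wholly above those of the other for 13 genes in favour of Molt-4 and 11 in favour of Jurkat, where 28.8% and 37.9% of all genes did so.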

How the data were processed

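RNA of 12 libraries (4 groups of 3) was analysed. The authors deposited FPKM per gene in 1 table. Per the submitters' processing notes they used STAR, HTSeq and DESeq2 with build hg19, and no versions or order of steps are given, nor is how FPKM was obtained. Per the labels' protocols, libraries were made from total RNA with a TruSeq kit, which does not mark strand. The table named 25146 genes by symbol, 20104 of them above 0 in a library, and held 0 columns of other samples.

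Low values were checked for whole multiples of what 1 read is worth. With equal steps 28.2% of 5372 values, and with fitted steps 31.2% of 5391, lay within 0.15 of a whole multiple, where an even spread gives 30%. Whole reads were not recovered, so no count test was run and no counting interval is given.

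The filter kept 13840 genes that reached 1 FPKM in 3 or more libraries. Values were transformed to log2(FPKM + 1), which understates changes of low genes, and fitted with limma 3.58.1 in R 4.3.3 (1 mean per group over all 12 libraries, eBayes with trend, leaving 8 residual degrees of freedom). P-values were two-sided and adjusted by Benjamini-Hochberg over all genes of each comparison, with calls at an adjusted p under 0.05. Percent changes are from group means of FPKM. The 4 comparisons were the response to chidamide in Molt-4, that in Jurkat, the first response minus the second, and the untreated lines against each other. The scripts were tested on simulated data with known changes.

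The 43 genes and the lists were chosen with earlier results of these data known. A gene of the planned erythroid list is not reported here. Test values were planned for E2F1, E2F2, PCNA, CDKN1A, the 10 called genes of largest change per line, those called against the majority, the 8 of largest change between lines or responses and up to 4 per list. Other test values, such as those for genes called in 1 line or lost when a library is left out, were added after their values were seen. Same-numbered replicates were checked for shared deviations. Exon overlaps came from GENCODE v29, promoters from RefSeq (GRCh38.p14). Alternatives were a pseudocount of 0.1, no filter, a minimum FPKM of 5, median-of-ratios scaling, quantile normalization, robust empirical Bayes, a replicate block, a fit of only the groups compared, an added log2 change of 1, a 100-base promoter window and each library left out. Equal totals of 1000000 without the 2 genes of 7SL RNA were chosen after seeing the data.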

Additional observations from a re-analysis of the deposited data

Results flagged for a closer look

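The response to chidamide differed between the lines, by the test of the difference itself, for 6 of the 43 genes. The response was more positive in Molt-4 for 5 (11.6% of the set, against 19.8% of all genes tested). It was more negative for 1 (2.33%, against 12.1%). On the log2 scale and as Molt-4 minus Jurkat, the differences were 0.4945 for MCM2, 0.4389 for MCM3, 0.4165 for CDC7, 0.2994 for RFC4, 0.1797 for MCM7 and -0.2442 for PCNA. In MCM3 every treated library lay above every untreated one in Molt-4 and below every untreated one in Jurkat, and the same was so in CDC7. MCM2 and RFC4 overlapped between treated and untreated Molt-4 and were separate in Jurkat, and MCM7 and PCNA were separate in both lines. Cell type markers moved with chidamide in both lines. Of the erythroid markers 4 of 6 rose in each. Of the 8 T-lineage markers, 4 fell and 3 rose in Molt-4, and 6 fell and 1 rose in Jurkat. Among all genes tested, 24.6% fell and 35.4% rose in Molt-4, and 25.4% and 30.9% did so in Jurkat. The part of the markers in these differences was not tested.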

How the results depend on the processing

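Depth is unknown, since FPKM holds no counts, and with 3 libraries per group small changes such as those of RPA2 and RPA3 rest on the choice of scaling or library. With an added log2 change of 1, the counts of the 43 genes became 0 in every comparison and direction and for the fall in both lines. In the same setting the cell cycle list gave 3 higher and 3 lower in Jurkat and 1 lower in Molt-4, and the further replication genes gave 0 higher and 0 lower in Jurkat and 0 lower in Molt-4. Under the remaining settings and with each library left out, the genes called lower stayed within 1.5 times of 34 in Jurkat (27 to 35) and of 28 in Molt-4 (25 to 31). With libraries left out these ranges were 31 to 35 and 25 to 28, 23 to 26 for the fall in both lines, 4 to 6 and 1 to 2 for the difference, and 8 to 13 and 8 to 11 between untreated lines.

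The count of 2 higher in Molt-4 was 1 with no filter, with median-of-ratios scaling and with only the groups compared, and 1 to 3 without single libraries, the gene lost being ORC4. The difference of responses had 3 genes higher with equal totals without 7SL RNA, and 2 lower with no filter, 3 with median-of-ratios scaling, 4 with quantile normalization and 4 without 7SL RNA. The further replication genes had 2 higher with quantile normalization in each line. Falls in Jurkat that lost their call were those of MCM3, MCM6, RFC4, RPA2, RPA3, LIG1 and E2F1 with quantile normalization, and of MCM3, GINS2, GINS3, POLA1, RFC1, RPA2 and RPA3 without 7SL RNA. GINS3 and RFC1 also lost theirs in the fit of only the groups compared, and RPA3 with robust empirical Bayes. In Molt-4 MCM6 lost its call with quantile normalization, and E2F1, GINS2 and POLA1 gained one with median-of-ratios scaling, as did POLA1 with quantile normalization. Between untreated lines, ORC3, MCM2 and POLD2 lost theirs with median-of-ratios scaling, and ORC3 with quantile normalization. ORC3, MCM2, MCM4 and FEN1 lost theirs with only the groups compared, and FEN1 also with no filter and without 7SL RNA. Quantile normalization shifted the median of all genes by -0.17 in Molt-4 and by -0.10 in the difference. Relative to all genes, the median of the 43 was then -0.22 in Molt-4 and -0.21 in Jurkat, against -0.44 and -0.35 without it. Of all calls in Molt-4, 59% were higher, against 41.3% with quantile normalization, and in the difference 62.2%, against 45.9% with it and 51.2% without 7SL RNA.

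Same-numbered replicates did not deviate together (correlations of -0.038 to 0.041). Such correlations cannot show how the samples were cultured or handled, so whether the numbers pair them is unknown. With the replicate block 33 genes were lower in Jurkat, and 28 lower and 1 higher in Molt-4. The calls lost with the block were RPA3 in Jurkat (adjusted p 0.0617), ORC4 in Molt-4 (0.0501) and FEN1 between untreated lines (0.0526).

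Among the results recomputed, these changed sign. With quantile normalization RPA3 became 0.00726 and ORC4 0.0338 in Jurkat, and MCM2 0.0108 in Molt-4. Without 7SL RNA ORC4 in Jurkat became 0.0599 and the GINS2 difference -0.00137, and with median-of-ratios scaling RFC4 in Molt-4 became -0.0317. With libraries left out, ORC4 in Jurkat ranged from -0.127 to 0.0554 and was positive in 4 fits, ORC5 in Molt-4 from -0.213 to 0.0906, positive in 4, and RFC4 in Molt-4 from -0.0147 to 0.0672, negative in 2. E2F2 in Jurkat ranged from -0.0157 (without untreated Jurkat replicate 1) to 0.225, and the FEN1 difference from -0.196 to 0.0157 (without untreated Jurkat replicate 3). The cause of these changes was not tested.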
